A study of Homo sapiens with 6 samples.

Results

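The 3p strands of the let-7 and miR-98 precursors were examined in small RNA libraries of A549 cells. They were chosen by name, as hsa-let-7a-3p, hsa-let-7b-3p, hsa-let-7c-3p, hsa-let-7d-3p, hsa-let-7e-3p, hsa-let-7f-1-3p, hsa-let-7f-2-3p, hsa-let-7g-3p, hsa-let-7i-3p and hsa-miR-98-3p (written below without hsa, the mark of human miRNAs), and the rule that selects them uses no measured value, although the family was picked with earlier results of these data known. These are 10 of the 2588 miRNAs in the deposited table. A549 is an established cell line from a human lung adenocarcinoma. The study compared 3 libraries of parental A549 cells (Ctrl) with 3 libraries of A549 cells from which the MIR21 locus was deleted (MIR21-KO), all collected 48 h after seeding in medium with fetal bovine serum. Per the study's methods, the deletion was made by transfection of Cas9 with a pair of guide RNAs, and edited cells were grown from single sorted cells. The labels state neither how many clones were sequenced nor whether libraries of a group came from separate cultures, so p-values measure only the spread between these libraries.

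The libraries held 5577287 to 9768152 miRNA reads. Values are counts per 1000000 reads scaled by TMM, a normalization that sets most miRNAs of all libraries to a common level, and 1 read was worth 0.0720 to 0.270 on that scale. The deletion showed in the targeted miRNA, since miR-21-5p took 65.5% to 69.4% of the reads in Ctrl and 0.0156% to 0.0254% in MIR21-KO. The libraries also fell into 2 sets that crossed the conditions. The first principal component of 314 other miRNAs, which carried 76.8% of their variance, placed Ctrl 1, Ctrl 2 and MIR21-KO 3 on one side (set A) and Ctrl 3, MIR21-KO 1 and MIR21-KO 2 on the other (set B). What separated the sets is not given in the labels. Of the 10 strands, 3 lay higher, and 1 lower, in every library of set B than in every library of set A. The share of all miRNAs apart by set was not counted, so these counts are not a result about the strands. No mRNA was measured in these libraries, so the lung origin of the cells could not be checked against markers.

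Each let-7 gene is transcribed as part of a longer RNA, from which Drosha cuts a hairpin and Dicer then removes the loop, leaving a duplex of a 5p and a 3p strand. Argonaute usually keeps the 5p strand of let-7 as the guide that represses targets such as RAS, MYC and HMGA2 mRNAs, and the 3p strand, long called the star or passenger strand, is mostly lost. The pluripotency factor LIN28 binds the loop of let-7 precursors, in part through the motif GGAG, and blocks their maturation. In lung adenocarcinoma let-7 is known as a tumor suppressor family.

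A 3p strand that is loaded would read targets through its own bases 2 to 8, the seed, which are unlike those of the 5p strand. The mature sequences are from RefSeq (GRCh38.p14), in which 9 of the 10 names were matched, the exception being let-7f-2-3p. They are shown 5′ to 3′ to let the seeds, in capitals, be compared.
let-7a-3p: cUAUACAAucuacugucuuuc
let-7b-3p: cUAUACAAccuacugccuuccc
let-7f-1-3p: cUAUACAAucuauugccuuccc
miR-98-3p: cUAUACAAcuuacuacuuuccc
let-7d-3p: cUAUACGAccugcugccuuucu
let-7e-3p: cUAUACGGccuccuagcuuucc
let-7c-3p: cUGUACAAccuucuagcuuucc
let-7g-3p: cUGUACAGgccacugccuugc
let-7i-3p: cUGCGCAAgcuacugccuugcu
For comparison, the 5p strands of the let-7a, let-7d and let-7i precursors show the seed that the whole 5p family has in common.
let-7a-5p: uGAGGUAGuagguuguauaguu
let-7d-5p: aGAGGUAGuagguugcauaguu
let-7i-5p: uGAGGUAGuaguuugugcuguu

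The 9 matched 5p strands held 1 seed, while the 9 matched 3p strands held 6. The seed of let-7a-3p also occurred in let-7b-3p, let-7f-1-3p and miR-98-3p, and the seeds of the other 5 matched strands differed from it and from each other. The seed of let-7g-3p was also that of let-7a-2-3p, the 3p strand of a further let-7a hairpin. Outside the let-7 and miR-98 strands, none of the 2370 mature miRNAs of the reference table held any of these seeds. All 9 sequences begin with C, as do 21.8% of the mature miRNAs in that table, whereas 8 of the 9 5p strands begin with U, the exception being let-7d-5p with A. Over the 21 bases that all of them have, let-7a-3p differed from the others by 3 bases (let-7b-3p and let-7f-1-3p) to 6 bases (let-7e-3p, let-7g-3p, let-7i-3p and miR-98-3p), and let-7b-3p and let-7f-1-3p were the closest pair, with 2 mismatches.

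The strands come from hairpins spread over several chromosomes (GRCh38, RefSeq, with overlapping genes from GENCODE). MIRLET7A1 (chr9:94175957-94176036), MIRLET7F1 (chr9:94176347-94176433) and MIRLET7D (chr9:94178834-94178920) lie side by side on the plus strand in an intron of a long noncoding RNA gene. MIRLET7A3 (chr22:46112749-46112822) and MIRLET7B (chr22:46113686-46113768) lie on the plus strand in exonic sequence of MIRLET7BHG. MIRLET7F2 (chrX:53557192-53557274) and MIR98 (chrX:53556223-53556341) lie on the minus strand in an intron of HUWE1, a ubiquitin ligase gene. The remaining members lie in introns of MIR99AHG (MIRLET7C, chr21:16539828-16539911, plus), SPACA6 (MIRLET7E, chr19:51692786-51692864, plus), WDR82 (MIRLET7G, chr3:52268278-52268361, minus) and a noncoding gene on the plus strand of chromosome 12 (MIRLET7I, chr12:62603686-62603769). let-7a-3p is made from MIRLET7A1 and MIRLET7A3, so its value is the sum of 2 rows, and let-7a-5p comes from 3 genes, the last being MIRLET7A2, whose own 3p strand is let-7a-2-3p. Between the strands the hairpins of let-7a-2, let-7c and let-7e held 23 bases and the others 26 to 36. The letters GGAG stood between the strands, in the sense direction, in 8 of the 11 let-7 and miR-98 hairpins with both strands annotated, against 8.12% of all 739 such hairpins. They were not in that window in MIRLET7A3, MIRLET7B and MIR98.

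let-7a-3p was the most abundant of the 10 strands in all 6 libraries. Its values were 466, 151 and 219.7 in Ctrl 1 to 3, and 119, 106 and 412 in MIR21-KO 1 to 3. Ctrl 1 and MIR21-KO 3, both of set A, were high, while Ctrl 2 of the same set lay below Ctrl 3 of set B. The Ctrl and MIR21-KO groups overlapped over most of their range. In bulk RNA, fewer cells with a strand and less of it per cell cannot be told apart. The group means were 279 ± 166 for Ctrl and 212 ± 173 for MIR21-KO (SD, n = 3 each), and even the lowest library of let-7a-3p lay above the highest library of any other member. Its 2 rows moved together, one holding 837, 260 and 745 reads of the Ctrl libraries and 774, 697 and 1422 of MIR21-KO, the other 909, 299 and 812 of Ctrl and 880, 769 and 1749 of MIR21-KO. How reads that fit both genes were shared between these rows is not given in the sources used here.

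Below let-7a-3p came a group of 6 strands whose ranges overlapped from one to the next. By mean value in Ctrl the order was let-7d-3p (20.9 ± 5.49, SD), let-7e-3p (19.8 ± 5.70), let-7b-3p (18.2 ± 1.95), let-7f-2-3p (18.2 ± 17.8), let-7i-3p (14.0 ± 19.4) and let-7f-1-3p (12.5 ± 1.71), with n = 3 libraries each. In MIR21-KO the order was let-7d-3p (41.2 ± 4.33), let-7b-3p (32.1 ± 9.09), let-7e-3p (22.3 ± 2.85), let-7i-3p (20.4 ± 14.1), let-7f-2-3p (18.0 ± 5.14) and let-7f-1-3p (13.4 ± 4.55), and again each neighbour in this order overlapped the next. let-7e-3p was at 22.2, 13.2 and 23.8 in Ctrl and at 20.7, 20.6 and 25.6 in MIR21-KO, with Ctrl 2 as the low library and the rest close together. The scarce members were miR-98-3p, at 3.43 ± 2.0 in Ctrl and 3.43 ± 1.04 in MIR21-KO, let-7g-3p and let-7c-3p. miR-98-3p lay below let-7f-1-3p without overlap in both conditions. miR-98-3p was at 3.47, 5.41 and 1.41 in Ctrl and at 4.03, 2.24 and 4.03 in MIR21-KO, so the Ctrl libraries spanned the MIR21-KO ones. let-7g-3p was counted in 1 to 22 reads and let-7c-3p in 2 to 16 reads per library, so their levels rest on little data. Levels of different strands also carry the sequence preference of adapter ligation, which was not measured.

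**Figure D1:**
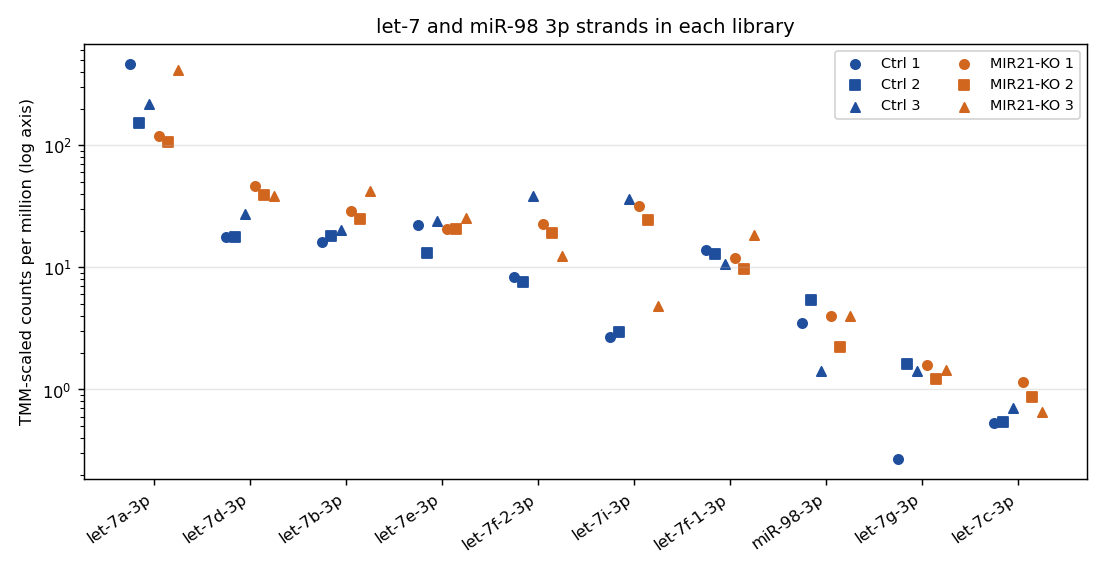
Level of each 3p strand in each library, in TMM-scaled counts per 1000000 reads on a log axis. Strands are ordered by their mean over all libraries. Blue symbols are the 3 Ctrl libraries and orange symbols the 3 MIR21-KO libraries. let-7a-3p lies above the others in every library (106 to 466), and let-7i-3p spans 2.67 to 36.4 with Ctrl 3 among the high libraries and MIR21-KO 3 among the low ones.

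let-7i-3p varied most among the members with at least 10 reads in every library, by 13.6-fold between the lowest and the highest library. It was at 2.67, 2.97 and 36.4 in Ctrl and at 32.1, 24.4 and 4.81 in MIR21-KO. Ctrl 3, MIR21-KO 1 and MIR21-KO 2, the libraries of set B, were the high ones, and each condition held both high and low libraries. let-7f-2-3p was split in the same way, at 8.28, 7.57 and 38.7 in Ctrl, against 22.6, 19.0 and 12.5 in MIR21-KO. let-7c-3p, at 0.534, 0.541 and 0.706 in Ctrl, against 1.15, 0.865 and 0.650 in MIR21-KO, was the other member of which every set B library lay above every set A library. Its nearest libraries, Ctrl 3 and MIR21-KO 3, both held 5 reads of it and were apart only through the scaling. let-7f-1-3p, whose precursor gives the same 5p strand as that of let-7f-2-3p, showed the opposite order. Its values were 13.9, 13.0 and 10.6 in Ctrl, against 12.03, 9.66 and 18.5 in MIR21-KO, with each set B library below each set A library. The 5p strand let-7i-5p, which made up 69.2% to 81.4% of the 5p reads, was not split by set. It was at 110417, 85233 and 73575 in Ctrl, against 230274, 166181 and 186609 in MIR21-KO. Other 5p strands were split, since let-7g-5p, let-7d-5p, let-7b-5p and let-7a-5p were higher in each set B library than in each set A library. The rest of the 5p strands were not apart by set in either direction. The split was thus not limited to 3p strands. The sets were read from these same libraries, so the splits are described and not tested.

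The comparison of MIR21-KO with Ctrl asks whether the 3p strands differ where MIR21 is deleted. let-7d-3p and let-7b-3p were the members whose MIR21-KO libraries all lay above the Ctrl libraries, and no member passed the test. let-7d-3p was at 17.6, 17.8 and 27.2 in Ctrl and at 46.2, 39.2 and 38.2 in MIR21-KO. All 3 MIR21-KO libraries were above the highest Ctrl library, Ctrl 3. The log2 difference was 0.97 with a standard error of 0.42 (limma with Benjamini-Hochberg adjustment over 607 miRNAs, adjusted p = 0.434). let-7b-3p was at 16.3, 18.1 and 20.2 in Ctrl and at 28.9, 25.1 and 42.4 in MIR21-KO. Here too the groups did not overlap, MIR21-KO 3 being the highest, and the log2 difference was 0.76 with a standard error of 0.42 (limma, adjusted p = 0.576). These were 2 of the 9 members tested, a share to be read against 9.56% of all 607 miRNAs whose groups were apart in this direction. With a term for the library sets the log2 difference of let-7d-3p was 0.85 (limma, adjusted p = 0.0513) and that of let-7b-3p was 0.83 (limma, adjusted p = 0.0710), neither being called. Over all alternatives the adjusted p ran from 0.0246 to 0.983 for each of them. The sets were defined from these same libraries, so that term is not independent of the data. In no tested member did every MIR21-KO library lie below every Ctrl library.

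Of the 10 strands, 9 passed the filter, which asked for a value of 1 or more in 3 or more libraries, and let-7c-3p did not. By limma at an adjusted p under 0.05, 0 of these 9 were called higher, against 0% of all miRNAs tested, and 0 were called lower, against 0.824%. At an unadjusted p under 0.05 the count was 0 of 9, against 68 of 607, and edgeR and DESeq2 on the recovered reads also called 0 of the members. The log2 differences of the others, on the log2(value + 1) scale, were 1.05 (SE 1.05) for let-7i-3p, 0.34 (0.67) for let-7f-2-3p, 0.27 (0.37) for let-7g-3p, 0.20 (0.43) for let-7e-3p, 0.08 (0.46) for miR-98-3p, 0.06 (0.42) for let-7f-1-3p and -0.52 (0.69) for let-7a-3p. Apart from those of let-7b-3p, let-7d-3p and let-7i-3p, none of these kept its sign under every alternative, let-7a-3p turning to 0.86 where each library was scaled to its total. The members' median was 0.27, beside 0.24 over all 607 miRNAs. Scaling to the total moved the median of all miRNAs to 1.34, and 4 members then passed the test as higher (let-7b-3p, let-7d-3p, let-7e-3p and let-7f-1-3p), so directions here are relative to the scaling.

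Within the sets, the log2 differences of let-7b-3p were 1.26 in set A and 0.40 in set B, and those of let-7d-3p were 1.07 and 0.63. let-7a-3p differed by 0.63 in set A and by -0.96 in set B, so its direction was not the same in both. let-7i-3p differed by 0.61 and -0.37 and let-7f-2-3p by 0.60 and -0.87. let-7b-3p, let-7c-3p, let-7d-3p and let-7f-1-3p were positive in both sets, and 0 members were negative in both. The same count over all miRNAs was not made, so it is not a result about the members. With 3 libraries a set, these values have no test of their own. MIR21-KO 3 was the only MIR21-KO library of set A and Ctrl 3 the only Ctrl library of set B. Each value thus rests on a single library of one condition.

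The 5p strands of the same precursors had larger log2 differences than the 3p strands, and the strand ratios given further on test that contrast. On the log2(value + 1) scale the differences of scarce strands are drawn toward 0. With 0.1 added in place of 1, the ratio of let-7g-3p went from -0.50 to -0.16. That of let-7i-3p went from -0.07 to 0.09. The members' median ratio was -0.76 there, beside -0.77. The 9 level differences of the 5p strands ran from 0.77 to 1.91 with a median of 1.08, beside 0.24 over all 607 miRNAs. By limma the adjusted p ran from 0.176 to 0.592, so that none was called. An unadjusted p under 0.05 was found for 6 of the 9, beside 68 of 607 miRNAs. Set B, in which let-7a-5p, let-7b-5p, let-7d-5p and let-7g-5p were higher, held MIR21-KO 1, MIR21-KO 2 and Ctrl 3. The sets and the conditions were thus not balanced. let-7b-5p was at 821, 1299 and 2687 in Ctrl and at 8749, 7011 and 2460 in MIR21-KO. let-7d-5p was at 60.9, 86.8 and 154 in Ctrl, against 464, 421 and 151 in MIR21-KO. In both, MIR21-KO 3 lay among the Ctrl libraries, while in their 3p strands it did not.

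**Figure D2:**
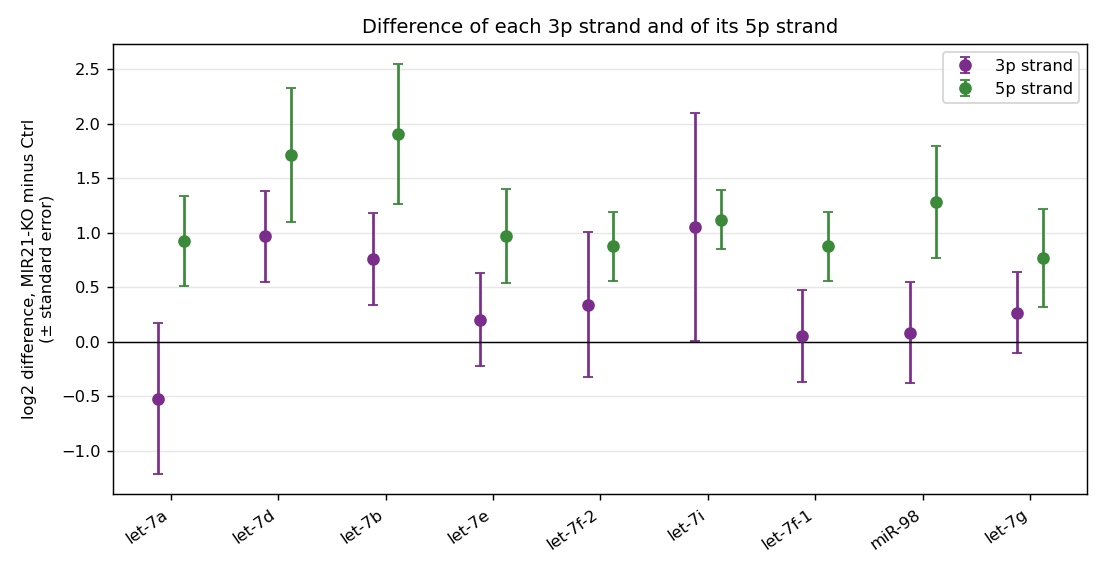
Log2 difference between MIR21-KO and Ctrl (vertical axis, ± standard error, 3 libraries a group) for each tested 3p strand in purple and for the 5p strand of the same precursor in green, where the let-7f-5p value stands beside both let-7f 3p strands. The 3p values run from -0.52 (let-7a) to 1.05 (let-7i) and each lies below the 5p value beside it, with no value called by limma.

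The share of the 3p strand among the reads of both strands is not touched by the scaling of a library. In most miRNAs of these cells it was far higher than in let-7. Over 181 strand pairs with both strands above the filter, the median 3p share was 42.9%, and over the 9 let-7 and miR-98 pairs among them it was 0.948%. The 3p strand was the more abundant strand in 86 of the 181 pairs, but in 0 of the 9 let-7 and miR-98 pairs. The median of all pairs thus mixes abundant 3p strands with scarce ones. It does not show how let-7 compares with the scarcer strands of other pairs, which was not tested. A share below 1% was found in 5 of the 9 let-7 and miR-98 pairs, beside 17.1% of all pairs.

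let-7d-3p was the exception, with shares of 22.4%, 17.1% and 15% in Ctrl, against 9.06%, 8.52% and 20.2% in MIR21-KO. Its interval in Ctrl 1, the shallowest in let-7d reads, ran from 18.1% to 27.6% (95% Wilson, counting error only). let-7a-3p followed with 8.43%, 2.99% and 2.26% in Ctrl, against 0.801%, 0.812% and 4.67% in MIR21-KO. In both strands MIR21-KO 1 and MIR21-KO 2 were the low libraries, and MIR21-KO 3 lay within the Ctrl range. miR-98-3p stood at 2.48%, 4.59% and 0.507% in Ctrl, against 0.752%, 0.557% and 1.37% in MIR21-KO. let-7b-3p stood at 1.95%, 1.38% and 0.745% in Ctrl, against 0.329%, 0.357% and 1.69% in MIR21-KO. let-7e-3p stood at 1.82%, 0.747% and 1.02% in Ctrl, against 0.495%, 0.546% and 1.07% in MIR21-KO. In all 3 strands MIR21-KO 3 was the highest MIR21-KO library and lay within the Ctrl range.

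At the other end, let-7i-3p, the passenger of the most abundant let-7 strand, took 0.00242%, 0.00349% and 0.0495% in Ctrl, against 0.0139%, 0.0147% and 0.00258% in MIR21-KO. Its precursor thus held both the largest 5p value and, in Ctrl 1, Ctrl 2 and MIR21-KO 3, a 3p strand in 10, 11 and 37 reads. let-7g-3p took 0.0062%, 0.0554% and 0.0195% in Ctrl, against 0.0154%, 0.0157% and 0.0252% in MIR21-KO, where the lowest value rests on 1 read. let-7f-2-3p took 0.0616%, 0.0592% and 0.375% in Ctrl, against 0.110%, 0.101% and 0.0442% in MIR21-KO. As with let-7i-3p, its high libraries were Ctrl 3, MIR21-KO 1 and MIR21-KO 2.

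**Figure D3:**
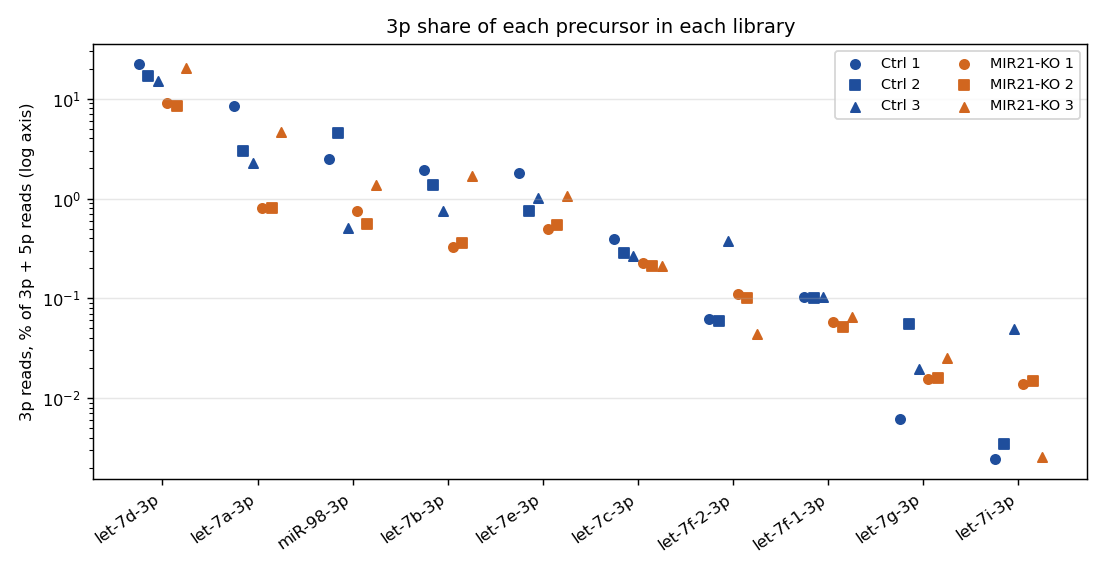
Share of the 3p strand among the 3p and 5p reads of its pair in each library, in percent on a log axis. Ctrl libraries are in blue and MIR21-KO libraries in orange. For let-7a and let-7f the 5p reads come from several genes, not only from the precursor of the 3p strand shown. The shares run from 22.4% (let-7d-3p, Ctrl 1) to 0.00242% (let-7i-3p, Ctrl 1), and the 3 MIR21-KO points of let-7f-1-3p lie below its 3 Ctrl points.

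Whether the share differed with MIR21 deletion was tested on the log2 ratio of the 3p to the 5p strand, with limma over the 181 pairs. The mean share was lower in MIR21-KO than in Ctrl for 10 of 10 members, but 0 of the 9 tested members were called, against 0% of all pairs. At an unadjusted p under 0.05 there were 0 of the 9 members and 4 of the 181 pairs. The log2 differences of the ratio ran from -1.44 (SE 0.92, let-7a-3p) to -0.07 (SE 1.20, let-7i-3p), with limma's adjusted p at 0.891 for 8 members and 0.981 for let-7i-3p. Their median was -0.77, beside -0.15 over all pairs, of which 58.6% were negative. Among single members the smallest standard error belonged to let-7f-1-3p, at -0.82 (SE 0.42). The values of let-7b-3p (-1.15, SE 0.80), miR-98-3p (-1.20, SE 0.80), let-7e-3p (-0.77, SE 0.57) and let-7d-3p (-0.74, SE 0.58) were of like size. Without Ctrl 3 the value of let-7i-3p was 1.16 and that of let-7f-2-3p 0.30. Without MIR21-KO 3 that of let-7i-3p was 0.68, and without Ctrl 2 that of let-7g-3p was 0.00. The direction of these members was thus not settled across the libraries left out. With a term for the library sets the values were -1.06 (let-7i-3p), -1.16 (let-7f-2-3p) and -0.29 (let-7g-3p), none being called. The pairs are not independent, since let-7f-1-3p and let-7f-2-3p are set against the same let-7f-5p reads and a 5p strand may be counted from more than 1 gene.

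let-7f-1-3p took 0.103%, 0.101% and 0.103% of its pair in Ctrl, against 0.0584%, 0.0512% and 0.0654% in MIR21-KO. The 3 Ctrl libraries were nearly level although they belong to different sets, and all MIR21-KO libraries lay below them. The counting intervals of the nearest libraries overlapped, that of Ctrl 2 starting at 0.0765% and that of MIR21-KO 3 ending at 0.0771%. This was 1 of the 9 tested members with every MIR21-KO library below every Ctrl library, beside 3.31% of all pairs. let-7c-3p, which was not tested, showed the same order, with 0.392%, 0.284% and 0.264% in Ctrl, against 0.224%, 0.210% and 0.208% in MIR21-KO, on 2 to 16 reads a library. The let-7f-5p reads set beside let-7f-1-3p also belong to the precursor of let-7f-2-3p. With both let-7f 3p strands counted, the share was 0.165%, 0.161% and 0.477% in Ctrl. It was 0.168%, 0.152% and 0.110% in MIR21-KO, so the groups overlapped.

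Within the sets, the ratio of let-7f-1-3p differed by -0.67 in set A and -0.91 in set B. That of let-7a-3p differed by -0.12 and -1.50, that of let-7b-3p by 0.00 and -1.14, and that of let-7d-3p by 0.02 and -0.89. In these 3 strands the larger values stood in set B, where Ctrl 3 was the only Ctrl library. The values were near 0 in set A, where MIR21-KO 3 was the only MIR21-KO library. Each of them sets a single library against the other condition, so none places an effect of the deletion in a set. miR-98-3p was the other way round, at -1.31 in set A and 0.01 in set B. The ratio was negative in both sets for 7 of the 10 members (let-7a-3p, let-7c-3p, let-7e-3p, let-7f-1-3p, let-7f-2-3p, let-7g-3p and let-7i-3p). This count includes let-7c-3p, which was not tested, and let-7g-3p, which had 1 to 22 reads a library. The same count over all pairs was not made, so it is not a result about the members. Over all 6 libraries 58.6% of all pairs were negative. The shares of let-7a-3p, let-7b-3p, let-7d-3p and miR-98-3p were lower in each set B library than in each set A library. Those of let-7f-2-3p and let-7i-3p were higher. How many of all pairs were apart by set was not counted.

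Taking all let-7 and miR-98 reads as one pool, the 10 3p strands made up 0.405%, 0.211% and 0.357% in Ctrl, against 0.0993%, 0.114% and 0.238% in MIR21-KO. MIR21-KO 3 lay between Ctrl 2 and Ctrl 3, so the groups overlapped. The means were 0.324% ± 0.101 (SD, n = 3) and 0.150% ± 0.0765 (SD, n = 3), and a two-sided exact permutation test gave p = 0.2, where 3 libraries against 3 cannot give less than 0.1. Since let-7i-5p held most of the 5p reads, the share was also taken without the let-7i pair, where the two-sided exact permutation p was 0.3.

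The summed level of the 10 strands was 551, 231 and 380 in Ctrl, against 288, 248 and 560 in MIR21-KO. The groups overlapped fully, with means of 388 ± 160 and 366 ± 170 (SD, n = 3 each, two-sided exact permutation test, p = 1.0). Without Ctrl 1, MIR21-KO 1 or MIR21-KO 2, or with each library scaled to its total, the difference between the means changed sign, from -22.0 to 59.9, 16.6, 36.8 and 332. The summed 5p strands had means of 117047 and 247514 in the same order (exact permutation test, two-sided, p = 0.1, n = 3 each).

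let-7a-3p supplied 84.6%, 65.3% and 57.8% of the summed 3p level in Ctrl, against 41.3%, 42.6% and 73.6% in MIR21-KO. The libraries of set A were the higher ones. The 4 strands with its seed held 90.7%, 81.1% and 66.3% of the member reads in Ctrl, against 56.9%, 57.5% and 85.2% in MIR21-KO, so that most 3p reads in every library had this seed. let-7i-3p, whose seed no other matched member has, took 9.58% in Ctrl 3, 11.1% in MIR21-KO 1 and 9.83% in MIR21-KO 2, and 0.484% to 1.29% in the other libraries. Without let-7a-3p the summed level was 109 ± 44.9 for Ctrl and 153 ± 14.2 for MIR21-KO (SD, n = 3 each, exact permutation test, two-sided, p = 0.3).

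**Figure D4:**
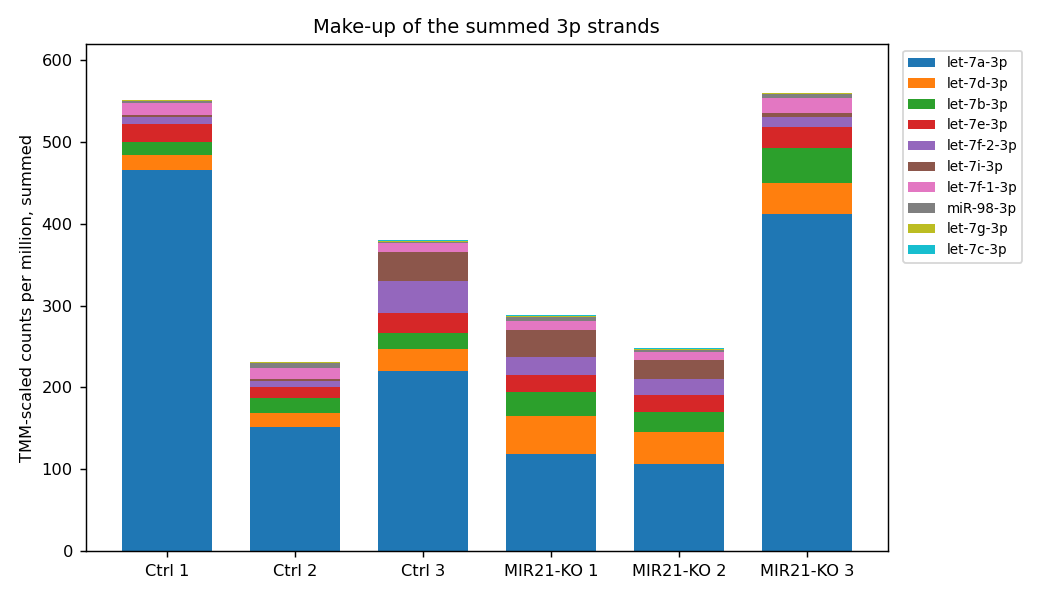
Summed level of the 10 3p strands in each library, in TMM-scaled counts per 1000000 reads, with each strand as a coloured segment. let-7a-3p fills 84.6% of the bar in Ctrl 1 and 41.3% in MIR21-KO 1, and the let-7i-3p and let-7f-2-3p segments are wide in Ctrl 3, MIR21-KO 1 and MIR21-KO 2.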

How the data were processed

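Small RNA of 3 Ctrl and 3 MIR21-KO libraries was, per the labels, made into libraries and sequenced by Novogene. The submitters' processing notes name cutadapt 1.14, Bowtie2 2.3.2, SAMtools 1.5, featureCounts 1.5.3, edgeR 3.18.1 and hg38. The miRNA annotation and the treatment of reads fitting several loci are not given in the sources used here. The authors deposited a signal per miRNA and library: each value was a whole number of reads times 1 factor per library (relative tolerance 1e-06), and TMM-scaled counts per 1000000 reads recomputed from these reads differed from them by at most 4.88e-15. The deposited columns of the authors' own comparison (log2 fold change, p-value, FDR) were not used.

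The 2813 rows were summed by name to 2588 miRNAs. Levels were tested on log2(value + 1), and strand ratios on the difference of these values, with limma 3.58.1 (trend, condition only, Benjamini-Hochberg, two-sided, R 4.3.3), over miRNAs at 1 or more in at least 3 of 6 libraries. A call is an adjusted p under 0.05. Replicates were not duplicates, with chi-square per degree of freedom from 130 to 2560. The named miRNAs are the members, their 5p strands, let-7a-2-3p, both miR-21 strands, miRNAs sharing a let-7 transcript, and the 3 other miRNAs (mean of at least 10) that correlate best with the summed members. A list of blood and liver miRNAs (miR-451a, miR-486-5p, miR-144-3p, miR-142-3p, miR-142-5p, miR-223-3p and miR-122-5p) was summed, and its abundant members are named. The rule for members uses names only, but members and lists were chosen with earlier results of these data known. Alternatives were other pseudocounts, filters, scalings, unsummed rows, edgeR 4.0.16, DESeq2 1.42.0, a replicate block, a set term and libraries left out.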

Additional observations from a re-analysis of the deposited data

How the results depend on the processing

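Of the members' log2 differences under the alternatives, 141 of the levels and 110 of the ratios kept both sign and side of the threshold. The sign turned in 24 of the levels and 5 of the ratios, and a further 4 of the levels became called. Scaling to the total called 4 members higher (let-7b-3p 2.08, let-7d-3p 2.299, let-7e-3p 1.52, let-7f-1-3p 1.33), turned let-7a-3p to 0.86, and moved the difference of the summed level to 332. By construction that scaling spreads the reads that miR-21 no longer takes over all other miRNAs. Calls over all 607 miRNAs, 0 higher and 5 lower, became 196 higher with scaling to the total, 71 higher and 39 lower with a term for the library sets, 4 higher and 19 lower in DESeq2, and 3 lower with a pseudocount of 10. With libraries left out they ran from 2 to 5 lower, and the called ratios from 0 to 1. One ratio of another miRNA was called with a pseudocount of 10 and 1 with the set term. The cause was not tested.

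The sign turned for let-7f-2-3p (-0.14 with the set term, -0.056 in edgeR, -0.25 in DESeq2), let-7e-3p (-0.041 scaled without miR-21, -0.077 with median centring, -0.057 in DESeq2), let-7f-1-3p (-0.18 scaled without miR-21, -0.092 with median-of-ratios factors, -0.22 centred, -0.12 in DESeq2) and miR-98-3p (-0.10, -0.036, -0.16 and -0.23 in the same order, -0.031 in edgeR). The members' median was -0.057 in DESeq2, and that of all miRNAs -0.020 when centred and -0.025 in DESeq2. The ratio of let-7i-3p was 0.091 with a pseudocount of 0.1. Leaving out 1 library gave levels of let-7e-3p from -0.047 to 0.35, let-7f-1-3p from -0.19 to 0.25, let-7f-2-3p from -0.049 to 1.06, let-7g-3p from -0.062 to 0.46 and miR-98-3p from -0.30 to 0.40, ratios of let-7f-2-3p from -0.97 to 0.30, let-7g-3p from -0.80 to 0.0023 and let-7i-3p from -0.81 to 1.16, and summed differences from -119 to 59.9.

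Libraries of the same replicate number deviated in opposite directions (correlations -0.88, -0.72 and -0.92). These correlations, over the miRNAs that defined the library sets, follow the split into those sets. They give no sign of pairing by number, but cannot show whether replicates were handled in pairs. A replicate block left 0 members called and 2 miRNAs lower, and paired sign flips gave an exact p of 0.25 for the pooled share, the smallest 3 pairs allow. Depth limits let-7c-3p, let-7g-3p and miR-98-3p most, which had 2 to 16, 1 to 22 and 10 to 56 reads a library.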

Other observations

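let-7a-2-3p, the 3p strand of the third let-7a gene and no member here, was at 2.67, 1.08 and 5.08 in Ctrl, against 5.19, 3.17 and 2.86 in MIR21-KO, with each library of set B above each of set A, and its log2 difference was 0.37 (SE 0.48, limma, adjusted p = 0.789). miR-99a, miR-99b, miR-100, miR-125a and miR-125b are made from transcripts that also hold a let-7 hairpin. Of the 11 strands of these miRNAs in the table, 10 were tested and 0 were called by limma, nor did any have an unadjusted p under 0.05, with log2 differences from -0.54 (miR-125b-1-3p) to 1.09 (miR-125a-5p).

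Among 316 other miRNAs, the summed members were most like miR-27a-3p over the 6 libraries (Pearson's r 0.955, Spearman's rho 0.714), which was at 5157, 2845 and 3700 in Ctrl, against 2629, 2811 and 4695 in MIR21-KO. miR-16-2-3p (r 0.925, rho 0.771) and miR-224-5p (r 0.902, rho 0.771) followed. The 6 points share their library factors and the library sets, and the sum is mostly let-7a-3p.

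The 7 listed miRNAs of blood and liver cells summed to 260 ± 108 for Ctrl and 111 ± 29.9 for MIR21-KO (SD, n = 3 each, exact permutation test, two-sided, p = 0.1). The lowest Ctrl library and the highest MIR21-KO library were nearly equal, at 144.78 in Ctrl 3 and 144.71 in MIR21-KO 3. miR-486-5p ran from 75.7 to 175, miR-122-5p from 7.90 to 141 and miR-451a from 1.69 to 41.6, and the other 4 were below 1. Their part in the let-7 values was not tested.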
